A study of Mus musculus with 3 samples.

Results

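The damage-associated microglia genes described here are 10 genes, Spp1, Lpl, Gpnmb, Itgax, Clec7a, Cst7, Igf1, Lgals3, Trem2 and Axl. They were matched by symbol among 21750 features of 1 single-cell RNA library, and each matched 1 feature. The library came from the hippocampi of 5 mice, pooled, with the genotype Aldh1l1CreERT2;Rosa26-LSL-tdTomato, in which a tamoxifen-inducible Cre recombinase driven from Aldh1l1, a gene active mainly in astrocytes, switches on a red reporter. The mice had received a Cre-dependent AAV-TIGRi-Hopx vector with an EGFP reporter, made to lower Hopx, and were taken 3 weeks after tamoxifen. The sort was for tdTomato and EGFP, which are meant to mark transduced astrocyte-lineage cells, so the myeloid cells described here are cells that the sort was not aimed at. All cells shared this treatment, and no control library of uninjected or control-vector mice was analysed here. The series also holds 2 chromatin samples of primary astrocytes, which were not analysed here. No label or note gives the age of the mice.

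Microglia are the resident macrophages of the brain parenchyma. In ageing, demyelination, amyloid pathology and injury of the mouse brain, part of them are known to lower homeostatic genes such as P2ry12 and Tmem119 and to raise a set of genes for phagocytosis, lysosomes and lipid handling, called damage-associated. TREM2 is a lipid-sensing surface receptor that signals through the adaptor TYROBP, and in mouse models of amyloid pathology the full set depends on it. Many of the genes are also used by macrophages at the borders of the brain and by monocyte-derived cells, so the cell type in which each transcript is found matters.

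The matrix gives unique molecular identifier counts (UMIs, each standing for 1 captured transcript molecule). It held 6672 barcodes, of which 6485 had at least 500 genes and at most 15% mitochondrial UMIs, with 610 to 42440 UMIs each and a median of 5564. Levels are given as CPM, a gene's UMIs scaled to 1000000 UMIs of the cell type. Hopx itself stood at 533 CPM in astrocytes and gave 32 UMIs in 30 microglia barcodes. EGFP gave 2 UMIs, in 1 microglia barcode, and tdTomato gave 22 UMIs in 20 microglia barcodes. With 1 library there is no replicate, no test and no p-value. All intervals are 95% intervals that cover counting error only.

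Cell types were assigned from 8 markers each, none of them among the 10 genes. A barcode needed at least 3 markers of a type and no other type above 0.5 times that type's share. The microglia gate took 2344 barcodes (36.1%), with a median of 6480.5 UMIs and 6 of 8 markers seen. The border macrophage gate took 237 barcodes and the endothelial gate 1492. The recruited monocyte or macrophage gate took only 11. Another 1489 barcodes (23.0%) stayed ungated, 1187 of them because they carried markers of a second type. The 10 types with at least 20 barcodes are ranked, and the others are given as counts. The microglia gate rests on homeostatic genes, some of which moved with the 10 genes, as described further on.

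Start-site windows of 4 of the genes are shown because Spp1, Gpnmb and Igf1 were among the pairs with the highest co-detection ratios, and Axl is set beside them as a gene that reached a ratio of 1.5 with none of the others in all gated microglia. The windows run from 250 bases before to 50 bases after the annotated start, 5′ to 3′ on the gene's strand, from RefSeq on GRCm38.p6. That build is older than the GRCm39 build of the counts, and the windows were matched by symbol. The capitals mark letters that were searched for on both strands: GAGGAAGT, of the type bound by the myeloid factor PU.1, CACGTG, of the type bound by the lysosomal factors MITF and TFEB, and TGANTCA. The last, with any base at N, is a wider form of the TGACTCA or TGAGTCA bound by AP-1, and is called AP-1-type here. The Spp1 window is chr5:104434861-104435160 (+), the Gpnmb window chr6:49036268-49036567 (+), the Igf1 window chr10:87860861-87861160 (+) and the Axl window chr7:25788684-25788983 (-).
Spp1: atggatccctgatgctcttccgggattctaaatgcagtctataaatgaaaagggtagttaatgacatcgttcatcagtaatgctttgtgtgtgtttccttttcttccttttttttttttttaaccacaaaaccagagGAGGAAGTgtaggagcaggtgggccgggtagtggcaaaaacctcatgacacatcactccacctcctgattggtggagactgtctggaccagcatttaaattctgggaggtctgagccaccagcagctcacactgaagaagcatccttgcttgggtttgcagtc
Gpnmb: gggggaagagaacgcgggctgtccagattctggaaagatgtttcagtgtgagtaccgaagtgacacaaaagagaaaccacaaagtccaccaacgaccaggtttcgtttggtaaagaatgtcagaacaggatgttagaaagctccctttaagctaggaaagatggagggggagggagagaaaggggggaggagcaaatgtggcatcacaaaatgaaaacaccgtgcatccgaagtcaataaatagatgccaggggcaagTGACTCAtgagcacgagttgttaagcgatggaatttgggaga
Igf1: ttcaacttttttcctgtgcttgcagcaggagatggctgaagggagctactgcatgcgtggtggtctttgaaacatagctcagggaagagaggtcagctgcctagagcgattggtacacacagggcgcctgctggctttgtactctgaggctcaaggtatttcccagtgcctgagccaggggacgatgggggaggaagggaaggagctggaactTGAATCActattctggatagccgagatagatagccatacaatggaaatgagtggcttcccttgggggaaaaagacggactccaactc
Axl: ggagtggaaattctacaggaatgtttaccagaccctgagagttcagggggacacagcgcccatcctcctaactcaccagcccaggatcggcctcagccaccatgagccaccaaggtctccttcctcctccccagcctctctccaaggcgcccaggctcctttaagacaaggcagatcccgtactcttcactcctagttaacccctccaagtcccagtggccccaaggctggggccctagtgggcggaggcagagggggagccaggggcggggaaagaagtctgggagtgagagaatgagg

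The PU.1-type letters began 113 bases before the start of Spp1, and no other window of the 10 genes held them. AP-1-type letters were found in 5 of the 9 genes with a window: Gpnmb, where they began 8 bases after the start, Igf1, Itgax, Cst7 and Trem2. Only Gpnmb, with TGACTCA, and Itgax, with TGAGTCA, had C or G at N. Igf1 and Trem2 had TGAATCA and Cst7 had TGATTCA. Of 27025 symbols in the table, 3.69% had the PU.1-type, 8.97% the AP-1-type (any base at N) and 8.09% the MITF-type letters. None of the 9 genes had the MITF-type letters, and the Axl, Clec7a and Lgals3 windows held none of the searched letters. Lpl had no window in the table. A match of letters is a description of the sequence and does not show binding.

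Of the receptors, Trem2 and Clec7a had the highest microglial levels of the 10 genes. Trem2 gave 36665 UMIs in all, in 3242 barcodes (49.99%). It stood at 1906 CPM in microglia, at 519.8 CPM in border macrophages and at 45.9 CPM in endothelial cells, and the microglia interval did not meet the next type's. Counts from the 3′ end of transcripts are not scaled by length, so differences between genes also carry capture efficiency. Clec7a, which encodes the beta-glucan receptor Dectin-1, stood at 286 CPM in microglia and 167 CPM in border macrophages. Axl, a receptor tyrosine kinase that helps clear apoptotic cells, stood at 150.3 CPM in microglia, 76.5 CPM in border macrophages and 71.9 CPM in astrocytes. The border macrophage and astrocyte intervals of Axl overlapped. Itgax, which encodes the integrin subunit CD11c, stood at 83.1 CPM in microglia and 3.73 CPM in border macrophages, where it rested on 4 UMIs.

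Among the secreted and lysosomal genes, Cst7 was nearly absent from border macrophages. It encodes cystatin F, an inhibitor of lysosomal cysteine proteases. It stood at 183 CPM in microglia and 2.80 CPM in border macrophages, and T or NK cells, which are known to make cystatin F too, reached 61.3 CPM from 6 UMIs. Spp1, which encodes the secreted phosphoprotein osteopontin, stood at 228 CPM in microglia, 15.9 CPM in border macrophages and 34.8 CPM in ependymal cells. Lpl, which encodes the lipase that frees fatty acids from lipoproteins, was low everywhere: 26.8 CPM in microglia and 15.8 CPM in astrocytes, with overlapping intervals. Gpnmb, a glycoprotein of lysosomes and the cell surface, stood at 83.2 CPM in microglia and 63.7 CPM in B cells. Border macrophages had 57.9 CPM, oligodendrocytes 42.7 CPM and astrocytes 40.4 CPM. In this order each interval overlapped the next, and the B cell level rested on 13 UMIs. With a gate on general myeloid markers in place of homeostatic ones, the level in microglia was 129.9 CPM for Gpnmb.

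For Igf1 and Lgals3, the highest of the 10 types was not microglia. Igf1, the insulin-like growth factor, stood at 173 CPM in border macrophages and 12.8 CPM in microglia. Lgals3, which encodes galectin-3, a lectin that binds damaged lysosomes and glycoproteins, stood at 172 CPM in ependymal cells, 133 CPM in microglia, 80.3 CPM in border macrophages and 70.1 CPM in choroid plexus cells. The ependymal interval of Lgals3, 141 to 209 CPM, lay above the microglia interval of 127 to 139 CPM. The microglial level of Lgals3 was 54.4 CPM with 5 of 8 gate markers required and 191 CPM with the general myeloid gate. Among the 10 ranked types, the other 8 genes were highest in microglia. The recruited monocyte or macrophage gate, with 11 barcodes, is not ranked, and its counts are given further on.

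**Figure D1:**
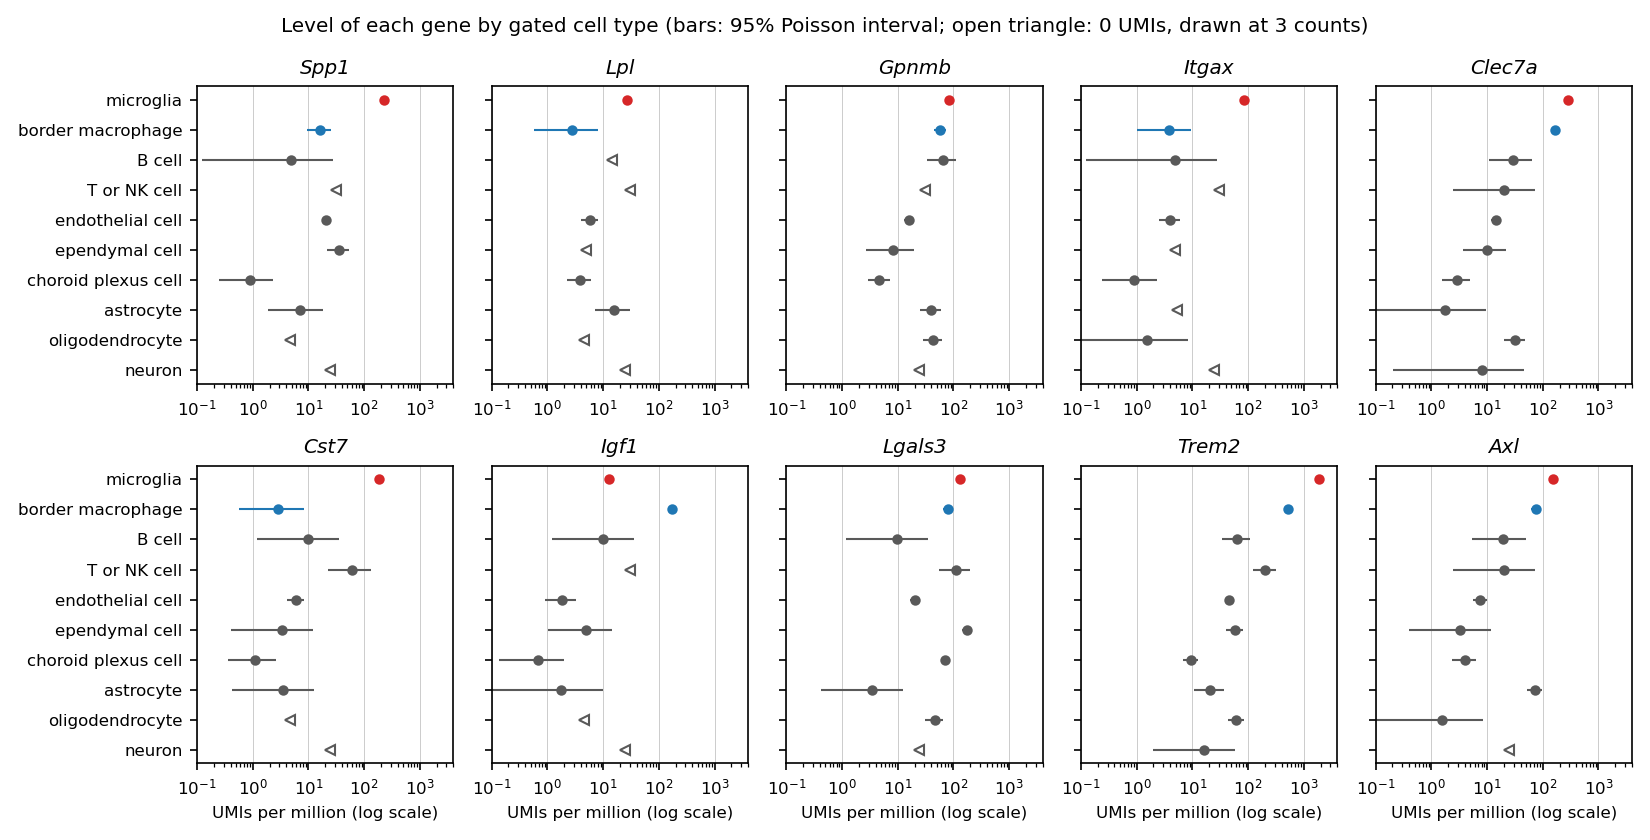
Level of each of the 10 genes by gated cell type in CPM on a log axis, with exact Poisson intervals. Trem2 is the highest of the 10 in microglia at 1906 CPM, and Igf1 is the gene whose border macrophage level, 173 CPM, lies far above its microglia level, 12.8 CPM.

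Low counts outside macrophages were set against endothelial cells, the largest gated type outside macrophages. Whether endothelial cells make some of these transcripts themselves was not tested. With every barcode thinned to 2000 UMIs, 2280 microglia, 225 border macrophages and 1300 endothelial barcodes remained. Their median depths before thinning were 6480.5 UMIs in all gated microglia, 4373 in border macrophages and 3529.5 in endothelial cells. Trem2 was detected in 95.5% of thinned microglia, 63.6% of border macrophages and 4.38% of endothelial cells. The other 9 genes were detected in 1.49% (Igf1) to 27.9% (Clec7a) of microglia and in 0.231% (Igf1) to 1.23% (Axl) of endothelial cells. Lgals3 in 27.0% of ependymal and 10.6% of choroid plexus barcodes, and Axl in 12.9% of astrocytes, lay well above their endothelial shares of 1.00% and 1.23%. Gpnmb was detected in 7.92% of astrocytes (3.48 to 15.01%), against 5.44% of microglia (4.54 to 6.45%) and 0.692% of endothelial cells, so by share the order of astrocytes and microglia was not resolved.

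For some genes, the UMIs per UMI of Trem2 differed between microglia and other types, and the examples given first were chosen for large differences. Per UMI of Trem2, choroid plexus cells had 7.48 UMIs of Lgals3 and ependymal cells 2.97, against 0.0697 in microglia. Astrocytes had 3.42 UMIs of Axl per UMI of Trem2, against 0.0788 in microglia. Border macrophages had 0.332 UMIs of Igf1 per UMI of Trem2, against 0.0067 in microglia. Other values lay closer, such as Spp1 in choroid plexus cells at 0.0952, against 0.119 in microglia. The ratios rest on 42 Trem2 UMIs in choroid plexus cells, 35 in ependymal cells, 12 in astrocytes and 557 in border macrophages. The source of the UMIs outside microglia was not tested.

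Set directly against border macrophages, the other myeloid type with enough barcodes, 5 of the 10 genes were more than 2-fold higher in microglia and 1 was more than 2-fold lower. Of 11312 genes with at least 20 UMIs in both types together, 12.2% were past 2-fold higher in microglia and 13.9% past 2-fold lower. The count of 5 was 7 with 5 of 8 gate markers required, 8 with a gate on general myeloid markers and 8 with the mean of CPM per cell. Cst7 had 2920 UMIs in microglia and 3 in border macrophages, a CPM ratio of 65.3 (22.3 to 317). Itgax was 22.3-fold higher (8.68 to 81.8), Spp1 14.3-fold (8.95 to 24.7), Lpl 9.58-fold (3.25 to 46.6) and Trem2 3.67-fold (3.37 to 3.99). Igf1 had 204 UMIs in microglia and 185 in border macrophages, a CPM ratio of 0.0740 (0.0604 to 0.0908). Clec7a, Axl, Lgals3 and Gpnmb had ratios of 1.71, 1.96, 1.65 and 1.44.

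Much of the Gpnmb and Lgals3 signal lay in none of the gated types. Microglia held 83.0% of all Trem2 UMIs and 82.1% of all Cst7 UMIs, but 33.8% of Gpnmb and 31.4% of Lgals3 UMIs. Ungated barcodes held 53.0% of Gpnmb and 53.7% of Lgals3 UMIs, against 13.9% of Trem2 UMIs. Among ungated barcodes, the 25 led by recruited monocyte or macrophage markers stood at 1334 CPM of Gpnmb, 1979 CPM of Lgals3 and 1714 CPM of Clec7a. The 81 led by border macrophage markers stood at 1037 CPM of Gpnmb, and the 387 led by microglia markers at 362 CPM.

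The 11 barcodes gated as recruited monocytes or macrophages had 270 UMIs of Gpnmb, 336 of Clec7a, 321 of Lgals3, 137 of Trem2 and 43 of Spp1. These were among 177387 UMIs in all. Microglia had 1329 UMIs of Gpnmb, 4563 of Clec7a, 2120 of Lgals3, 30427 of Trem2 and 3633 of Spp1, among 15966180 in all. The 11 barcodes are too few to rank. Without the limit on a second type, a gate tried after the data were seen, 21 barcodes were of this type and it was the highest of the ranked types for 7 of the 10 genes. Gpnmb then stood at 1521 CPM in recruited cells, against 106.7 CPM in microglia and 189.5 CPM in border macrophages. Only Cst7 and Trem2 remained highest in microglia: Cst7 at 182 CPM against 105 CPM in recruited cells, and Trem2 at 1875.5 CPM against 867 CPM.

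Those 21 barcodes carried markers of several types. Ly6c2 was seen in 18, Ms4a4c in 20, Chil3 and Hp in 15 each, but Ccr2 in only 2 and Vcan in 0. Of the border markers, Ms4a7 was seen in 19 and F13a1 in 11, while Pf4, Lyve1, Cd163 and Cbr2 were at 0. The microglia markers Siglech and Slc2a5 were seen in 0. The part of mixed droplets in this result was not tested.

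Within the microglia gate, the genes differed in how many barcodes carried their transcripts. Trem2 was seen in 2315 of 2344 barcodes, with a median of 12 UMIs and a highest count of 77. Axl was seen in 1227 barcodes (52.3%), Clec7a in 1142 (48.7%), Cst7 in 1065 (45.4%), Itgax in 735 (31.4%) and Lgals3 in 542 (23.1%). Spp1, Gpnmb, Lpl and Igf1 were seen in 292, 228, 167 and 96 barcodes.

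The UMIs of the less widespread genes came from a small number of barcodes, with high counts for Spp1 and Gpnmb. For Spp1, 75 barcodes had at least 10 UMIs and 1 had 455. Gpnmb had 36 barcodes with at least 10 UMIs, Lpl 7 and Igf1 only 1. The top 1% of microglia barcodes, 23 of them, held 60.4% of Spp1 UMIs, 52.0% of Igf1, 45.8% of Lpl and 45.3% of Gpnmb UMIs. The same share of barcodes held 32.9% of Lgals3, 12.9% of Clec7a, 12.9% of Itgax and 11.2% of Cst7 UMIs. It held 7.25% of Axl and 3.50% of Trem2 UMIs. A gene of few UMIs is bound to a small number of barcodes, as Igf1 with 204 UMIs and Lpl with 428 are. Spp1, at 3633 UMIs, had more than Cst7 at 2920 and Axl at 2399.

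**Figure D2:**
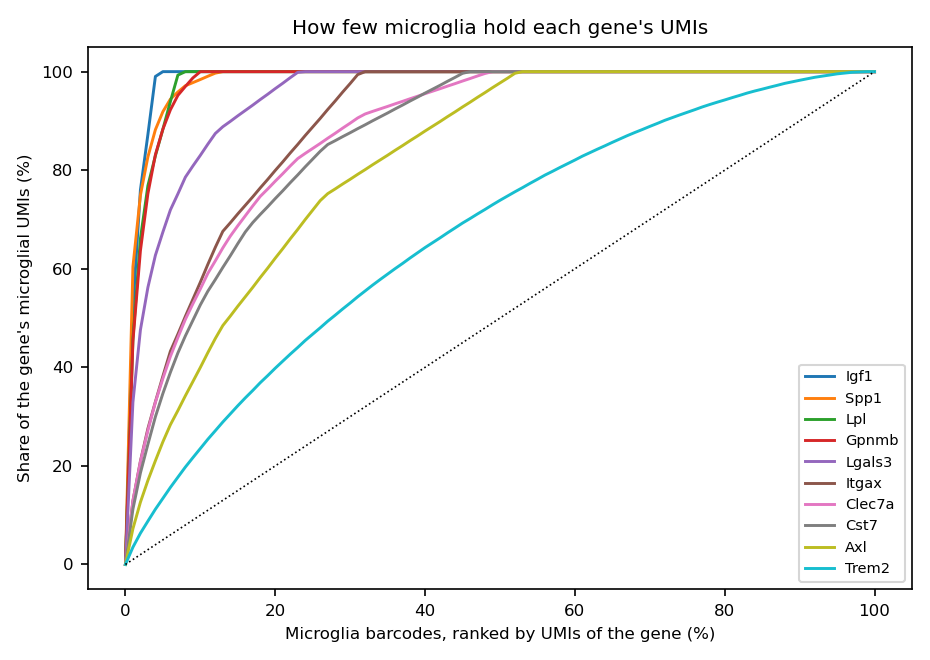
Share of each gene's microglial UMIs held by the barcodes with the highest counts, ranked per gene (x axis: share of the 2344 microglia barcodes). Spp1 reaches 60.4% within the top 1% of barcodes, whereas Trem2 reaches 3.50%.

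Co-detection was read in the 2280 microglia thinned to 2000 UMIs, as the share of barcodes with both genes divided by the product of their single shares. A ratio of 1 is what independent detection would give. Of the 45 pairs, 23 reached 1.5, and the median ratio was 1.67. Over all pairs of 1 of the 10 genes with 1 of 7706 other genes, 5.01% reached 1.5. Among the 38 pairs with at least 5 barcodes given by the product, 17 reached 1.5.

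Spp1, Gpnmb and Igf1, whose start-site windows are printed above, had the highest ratios, together with Lpl and Lgals3. Gpnmb and Igf1 were found together in 15 barcodes where the product gave 1.85, a ratio of 8.11. Spp1 and Igf1 were found together in 15 barcodes where it gave 2.43, a ratio of 6.17. Both rest on the 34 thinned barcodes with Igf1.

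Pairs with more barcodes gave lower ratios that were still above the threshold. Spp1 and Gpnmb were found together in 47 barcodes where the product gave 8.86, a ratio of 5.30. Spp1 and Lpl were together in 22 barcodes against 4.58, a ratio of 4.81. Gpnmb and Lgals3 were together in 55 barcodes against 14.2, a ratio of 3.87, and Spp1 and Lgals3 in 53 against 18.7, a ratio of 2.84. Lpl and Gpnmb had a ratio of 2.87 from 10 barcodes, and in microglia of 5000 to 8000 UMIs they were never seen together, a ratio of 0.

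The more widespread genes had lower ratios with each other. The highest ratio a gene can reach falls as it is seen in more barcodes. It was 3.58 for Clec7a and 4.36 for Cst7, against 13.99 for Spp1 and 35.6 for Lpl. Lower ratios therefore need not mean a weaker tie. By the correlation of detection used further on, Clec7a and Lgals3 stood at 0.20, and Spp1 and Lpl at 0.18. Clec7a and Cst7 were together in 214 barcodes where the product gave 146, a ratio of 1.46. Itgax and Cst7 had a ratio of 1.47 and Itgax and Axl of 1.43. Clec7a had higher ratios with the rarer genes, at 2.13 with Spp1, 2.14 with Gpnmb and 1.89 with Lgals3.

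Counted per gene, Spp1, Lpl and Lgals3 reached 1.5 with 7 of the other 9 genes, where 5.35%, 11.3% and 4.32% of all 7706 genes did. Gpnmb and Igf1 reached it with 6 each, where 9.23% and 16.3% of all genes did. Clec7a and Cst7 did so with 5 each, against 0.597% and 0.623% of all genes, and Itgax with 3, against 1.97%. The share over all genes was higher for the rarely detected members, and each count is to be read against its own share.

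Axl reached 1.5 with 0 of the other 9 genes, where 0.35% of all genes did, although it was detected in 556 thinned barcodes and could have reached 4.10. Its ratios were 1.06 with Gpnmb and 0.603 with Igf1, the last from 5 barcodes where the product gave 8.29. Under other settings the ratio of Axl and Igf1 ran between 0.651 and 1.44, on both sides of 1. Axl then reached 1.5 in some cases: 2.26 with Lpl at 5 of 8 gate markers, 1.70 with Cst7 at 1000 UMIs and 1.57 with Itgax within 5000 to 8000 UMIs. Without barcodes that carried another macrophage marker it did so with 4 genes, at 1.73 with Gpnmb, 1.72 with Spp1, 1.69 with Lgals3 and 1.501 with Lpl. Trem2 also reached 1.5 with 0 genes, but with 2177 of 2280 barcodes positive its ratio could not pass 1.05. By UMIs rather than detection, Trem2 was 1.23-fold higher (1.14 to 1.33) in Spp1-positive than in Spp1-negative microglia, at 4.60 UMIs per thinned Spp1-positive barcode and 3.74 per Spp1-negative barcode. In Itgax-positive over Itgax-negative microglia the Trem2 ratio was 0.96 (0.90 to 1.02), and for Axl it was 0.96 (0.91 to 1.01).

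**Figure D3:**
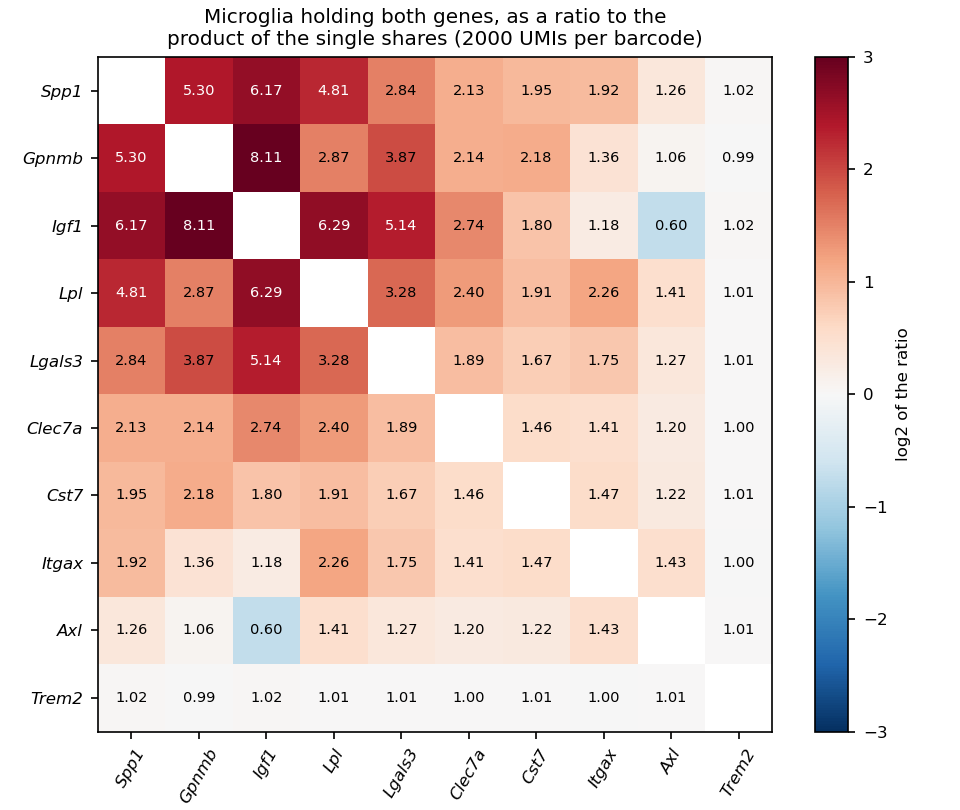
Co-detection ratio of each pair of the 10 genes in 2280 microglia thinned to 2000 UMIs, on a colour scale. Pairs among Spp1, Gpnmb, Lpl, Igf1 and Lgals3 are the highest, up to 8.11, and the rows of Trem2 and Axl stay below 1.5.

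In border macrophages, 14 of 36 defined pairs reached 1.5, where 11.5% of their pairs with all other genes did. Only 5 pairs had at least 5 barcodes from the product, and 0 of these reached 1.5. Igf1 and Clec7a were together in 5 border macrophages where the product gave 10.4, a ratio of 0.481, against 2.74 in microglia. The depth and number of border macrophages do not allow a finer reading, and the difference between the types was not tested.

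Counting the genes per thinned microglia barcode, 44 barcodes had none of the 10, 863 had 1, 682 had 2 and 383 had 3. Trem2 was detected in 2177 of the 2280, so most barcodes with 1 gene had Trem2 alone. At least 4 genes were seen in 308 barcodes, 13.5% (12.1 to 14.98%), where independent detection gives 8.66%, 1.56 times as many. At least 5 were seen in 135 barcodes, 5.92% against 1.45%, and at least 6 in 53 barcodes, 2.32% against 0.149%. There were also more barcodes than independence gives with 0 genes, 44 against 28.2, and with 1 gene, 863 against 637. There were fewer with 2 genes, 682 against 893, and with 3 genes, 383 against 525. Of Spp1, Lpl, Gpnmb and Igf1 alone, 1990 barcodes had none, 211 had 1, 67 had 2, 8 had 3 and 4 had all 4.

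Depth moved with this count even though every barcode was thinned to the same number of UMIs. The median before thinning was 9721 UMIs in barcodes with 5 or more genes, 8564 with 4, 7346 with 3, 6778 with 2, 5518 with 1 and 5352 with none. The median mitochondrial share stayed between 0.676% and 0.737%. Within microglia of 5000 to 8000 UMIs, an alternative added after the data were seen, 9.58% had at least 4 genes where the product gives 5.71%, and 20 pairs reached 1.5.

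**Figure D4:**
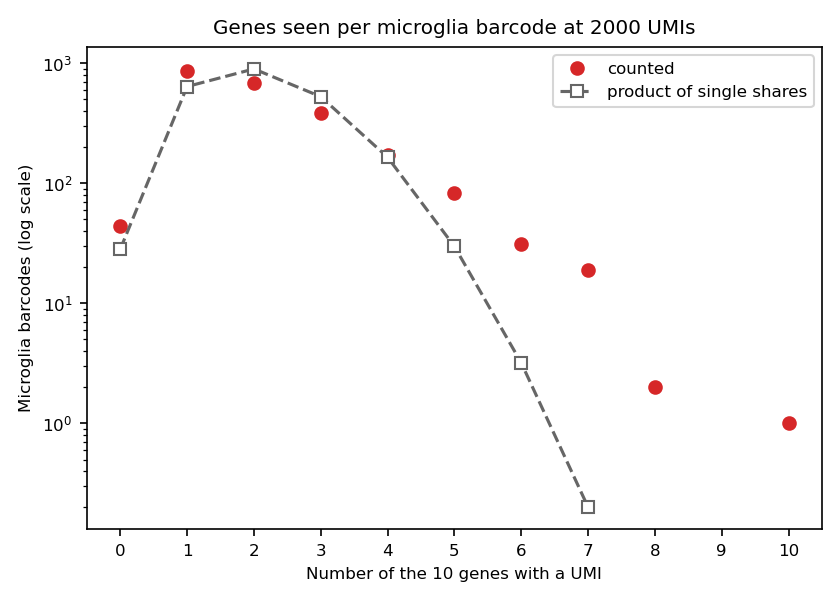
Number of microglia barcodes, thinned to 2000 UMIs, with each number of the 10 genes, beside the number that independent detection gives. At 5 genes there are 82 barcodes against 29.7, and at 2 genes 682 against 893.

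Microglia in which a gene was detected were then compared with those in which it was not, over lists of other genes. The list of other damage-associated genes, 29 of which had enough counts in the thinned microglia, was higher with most of the 10 genes and least so with Axl. Its median log2 ratio was 0.66 in Gpnmb-positive over Gpnmb-negative microglia, 0.61 for Spp1, 0.56 for Lgals3, 0.51 for Igf1, 0.45 for Clec7a, 0.42 for Lpl and 0.40 for Cst7. It was 0.27 for Itgax, 0.17 for Trem2 and 0.12 for Axl. Over all 7780 genes, the medians ran from -0.14 to 0.07.

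For Gpnmb, 10 of the 29 genes were past 2-fold higher and 1, Ccl3, past 2-fold lower, where 3.29% and 11% of all genes were. Fabp5, a fatty-acid binding protein gene, stood at 1540 CPM in Gpnmb-positive and 153 CPM in Gpnmb-negative microglia, a ratio of 10.0 (8.84 to 11.4). Apoe, the main lipid carrier gene of the brain, stood at 31992 CPM in Gpnmb-positive and 13518 CPM in Gpnmb-negative microglia. Lyz2, the lysozyme gene of myeloid cells, stood at 2339 CPM in Gpnmb-positive and 920.0 CPM in Gpnmb-negative microglia.

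For Spp1, 6 of the 29 were past 2-fold higher and 0 lower, where 1.74% and 8.15% of all genes were. They were Apoe, Lyz2, Fabp5, Ank, Colec12 and Capg, with Fabp5 at 856 CPM in Spp1-positive and 180 CPM in Spp1-negative microglia. For Igf1, 7 were past 2-fold higher (7.94% of all genes) and 0 lower (23.2%). For Lgals3, 6 were higher (1.36%) and 0 lower (5.54%), and for Lpl, 6 were higher (4.1%) and 0 lower (15.2%). Clec7a had 4 higher (0.437%) and 0 lower (1.48%), and Cst7 had 1 higher (0.411%) and 0 lower (2.21%). Itgax had 0 higher (0.488%) and 0 lower (3.39%), and so had Axl (0.141% and 1.16%). Trem2 had 1 higher, where 7.28% of all genes were, and 1 lower, where 3.61% were. Fabp5 was 1.02-fold (0.882 to 1.17) in Axl-positive over Axl-negative microglia, at 232 CPM in the positive and 228 CPM in the negative barcodes.

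Homeostatic genes outside the gate ran the other way. Of 13 measured, 4 were past 2-fold lower in Gpnmb-positive microglia, Selplg, Cst3 and Txnip among them, and 0 higher. Of all genes, 11% were lower and 3.29% higher. Cst3, which encodes cystatin C, stood at 6746 CPM in Gpnmb-positive and 17131 CPM in Gpnmb-negative microglia. The list's median log2 ratio was -0.92 for Gpnmb, -0.78 for Igf1, -0.63 for Lgals3, -0.55 for Spp1 and -0.25 for Axl. The gate's own markers moved with it: P2ry12 was seen in 24.2% of Gpnmb-positive and 57.8% of Gpnmb-negative barcodes, and Tmem119 in 34.7% of Gpnmb-positive and 66.2% of Gpnmb-negative ones.

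The cytokine list moved further with Gpnmb than with Spp1, at median log2 ratios of -1.10 and -0.20. With Gpnmb, 6 of 9 measured were past 2-fold lower, Il1a, Tnf, Ccl2, Ccl7, Nfkbia and Nfkbiz, and Ccl5 was past 2-fold higher. Of all genes, 11% were past 2-fold lower and 3.29% higher with Gpnmb. Tnf stood at 190 CPM in Gpnmb-positive and 503 CPM in Gpnmb-negative microglia, and Ccl5 at 3411 CPM in Gpnmb-positive and 1175 CPM in Gpnmb-negative microglia. With Spp1, 1 was past 2-fold higher, Cxcl2, and 1 lower, Ccl7, where 1.74% and 8.15% of all genes were. Ccl2, Tnf, Nfkbia and Il1a were also lower with Spp1, at 0.64-, 0.75-, 0.80- and 0.87-fold. Ccl5 was 1.29-fold higher and Nfkbiz was at 1.00-fold. Il1b was higher with Spp1, at 1451 CPM in Spp1-positive and 1015 CPM in Spp1-negative microglia, but 0.61-fold with Gpnmb. The difference between these splits was not tested, and they share 47 barcodes positive for both genes.

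Several MHC class II genes were higher with Spp1 and Gpnmb. Of 6 measured, 3 were past 2-fold higher with Spp1 and with Gpnmb: H2-Aa, H2-Ab1 and H2-Eb1. Of all genes, 1.74% were past 2-fold higher with Spp1 and 3.29% with Gpnmb. With Cst7 and with Igf1, 1 was higher, H2-Aa, where 0.411% and 7.94% of all genes were. H2-Aa stood at 1426 CPM in Cst7-positive and 673 CPM in Cst7-negative microglia. The list's median log2 ratio was 1.03 for Spp1, 0.95 for Gpnmb, 0.87 for Cst7 and 0.82 for Igf1. It was 0.69 for Lgals3, 0.68 for Clec7a, 0.63 for Itgax, 0.36 for Lpl and 0.13 for Axl.

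Interferon-induced genes were the list that moved most with Axl. Its median log2 ratio over 12 genes was 0.52, with 1, Rsad2, past 2-fold higher, where 0.141% of all genes were. Rsad2 stood at 204 CPM in Axl-positive and 96.3 CPM in Axl-negative microglia. The same list had a median of 0.57 with Lgals3, 0.51 with Cst7 and 0.04 with Spp1. The 8 TREM2 signalling genes had 0 past 2-fold with Spp1, a median of -0.45, and Tyrobp itself stood at 2426 CPM in Spp1-positive and 1748 CPM in Spp1-negative microglia.

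**Figure D5:**
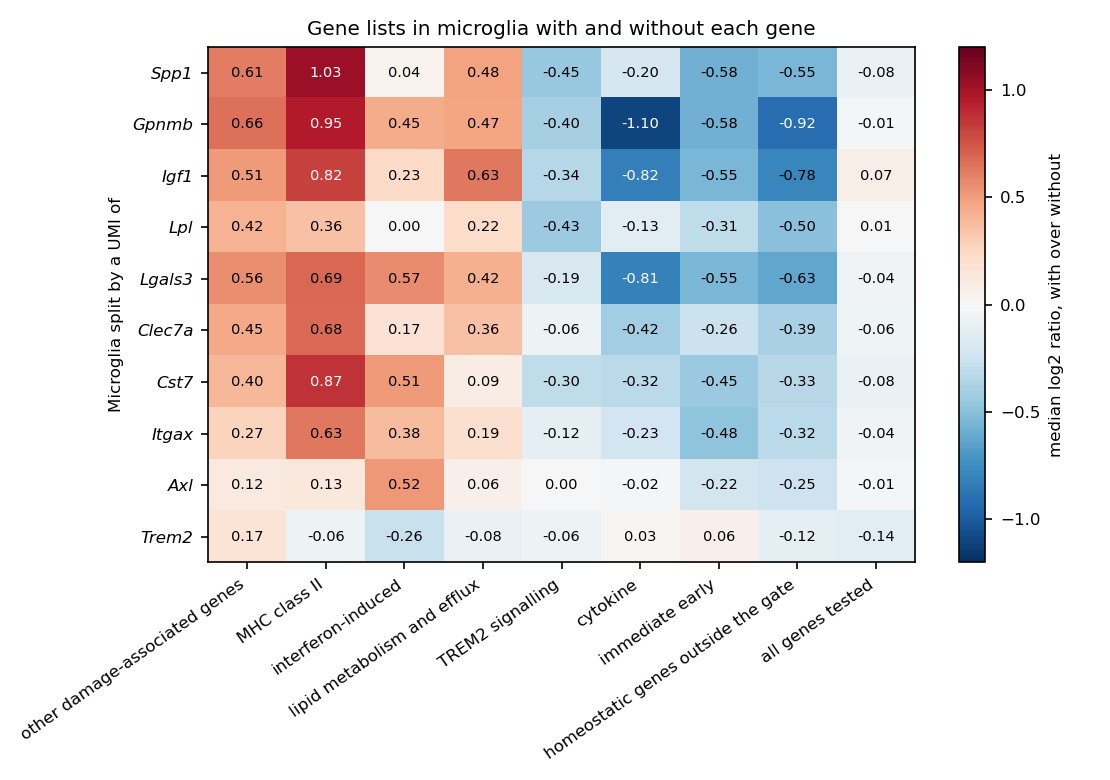
Median log2 ratio of each gene list between microglia positive and negative for each of the 10 genes, thinned to 2000 UMIs. The list of other damage-associated genes ranges between 0.12 (Axl) and 0.66 (Gpnmb), and the homeostatic list is lowest for Gpnmb at -0.92.

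A marker of border macrophages moved with Gpnmb inside the microglia gate. Ms4a7 was seen in 35 of 124 Gpnmb-positive barcodes (28.2%) and 33 of 2156 Gpnmb-negative ones (1.53%). Over the whole list of 8 border markers, any was seen in 30.6% of Gpnmb-positive and 13.9% of Gpnmb-negative barcodes. The other defining markers Mrc1, Pf4, Lyve1, Cd163, F13a1 and Cbr2 were all at 0 in Gpnmb-positive barcodes. Stab1, the remaining marker, was seen in 3 Gpnmb-positive (2.42%) and 247 Gpnmb-negative barcodes (11.5%). Any of the 8 recruited-cell markers was seen in 21.0% of Gpnmb-positive and 17.9% of Gpnmb-negative barcodes. Ccr2, Chil3, Hp, F10 and Vcan were at 0 in Gpnmb-positive barcodes. The 26 Gpnmb-positive barcodes with a recruited marker therefore carried Ly6c2, Plac8 or Ms4a4c, of which Plac8 was past 2-fold lower than in Gpnmb-negative ones. Ly6c2, Ms4a4c and Ms4a7 were also seen in 18, 20 and 19 of the 21 recruited-type barcodes described above. For Spp1, Ms4a7 was seen in 11.7% of positive and 2.31% of negative barcodes.

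Leaving out every microglia barcode with any border or recruited marker, an alternative added after the data were seen, lowered the level of Gpnmb to 27.3 CPM and that of Spp1 to 97.5 CPM. The log2 ratio of Gpnmb between microglia and border macrophages was then -1.08, against 0.52 with all microglia. The ratio of Spp1 and Gpnmb was 3.97 without those barcodes and that of Gpnmb and Lgals3 was 6.62, and 29 pairs reached 1.5.

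Among genes outside the 10, those most like each member were found by the phi correlation of detection over the 2280 thinned microglia, which share 1 library and 1 depth. Several members had a closer gene among the 10 themselves: Gpnmb for Spp1 (0.29), Spp1 for Lpl (0.18) and Gpnmb for Igf1 (0.21). Outside the 10, Fabp5 was among the 3 closest for Spp1 (0.21), Gpnmb (0.31), Clec7a (0.26), Igf1 (0.16) and Lgals3 (0.28). For Gpnmb the closest outside gene was Ms4a7, at 0.36. Spp1 was next closest to the scavenger receptor gene Colec12 (0.20) and to Vegfa (0.16), and Lpl to Fgf13 (0.14), Itga5 (0.14) and Capg (0.13).

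The widespread genes had other neighbours. Cst7 was closest to H2-Eb1 (0.21), Ccl5 (0.18) and Cd74 (0.18), all of antigen presentation or T cell attraction. Axl was closest to Oasl1 (0.13), Cxcl13 (0.13) and Ifit2 (0.13), of which Oasl1 and Ifit2 are interferon-induced. Itgax was closest to Cd63 (0.11), Cd52 (0.10) and Oasl1 (0.10), and Trem2 to Ctss (0.17), Tmsb4x (0.13) and Rpl30 (0.13). Values near 0.1 are weak and are given as order only.

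Lastly, the 308 microglia with at least 4 of the genes were set against those with few. The group with none held only 44 barcodes, so the 907 barcodes with 0 or 1 gene were added as a broader comparison after the data were seen. All 44 were among the 103 barcodes without detected Trem2, so the comparison with 0 also selects on missing Trem2. Most of the 308 held Trem2 and at least 3 others, and most of the 907 held Trem2 alone. Of 2491 other genes with at least 50 UMIs in the 308 and 44 barcodes, 7.79% were past 2-fold higher and 10.3% lower. Against the 907 barcodes, 6145 genes were measured, with 2.03% higher and 6.88% lower.

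Other damage-associated genes were higher in the barcodes with at least 4. Against 0 genes, 9 of 26 measured were past 2-fold higher, where 7.79% of all genes were, and 0 lower. Against 0 or 1 gene, 11 of 28 were higher and 0 lower, where 2.03% and 6.88% of all genes were. Fabp5 had 497 UMIs in the 308 barcodes and 4 in the 44, a ratio of 17.8 (6.89 to 65.4), and was 13.3-fold higher (10.8 to 16.5) than in the 907. Apoe stood at 27729 CPM with at least 4, 6136 CPM with 0 and 8580 CPM with 0 or 1. Timp2, an inhibitor of matrix metalloproteinases, Cd63, Lyz2 and the surface glycoprotein gene Cd52 were 3.73-, 3.59-, 3.90- and 2.84-fold higher than with 0.

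MHC class II genes were also higher, 4 of 6 past 2-fold in both comparisons, where 7.79% and 2.03% of all genes were. H2-Aa was 4.50-fold and Cd74 3.05-fold higher with at least 4 genes than with 0. Of 12 interferon-induced genes, 2 were higher than with 0, Rsad2 and Cxcl10, and 4 higher than with 0 or 1. Ccl5 was 2.96-fold higher than with 0, and Ccl2 was lower, at 0.401-fold.

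Some homeostatic and immediate early genes were past 2-fold lower. Against 0 genes, the median log2 ratio was -0.84 for the homeostatic list and -0.58 for the immediate early list. That of all genes was -0.21. Of 13 homeostatic genes, 2 were past 2-fold lower than with 0, where 10.3% of all genes were, Selplg at 0.371-fold and Txnip at 0.278-fold. By this count the homeostatic list was close to the share of all genes. Against 0 or 1 gene, 4 were lower, where 6.88% of all genes were. Of 12 immediate early genes, 3 were lower than with 0, where 10.3% of all genes were. Jun stood at 726 CPM with at least 4 genes against 3352 CPM with 0, and Hspa1a at 162 CPM against 1409 CPM. Immediate early and heat-shock transcripts are known to be induced by tissue dissociation, and whether that bears on these differences was not tested. Against 0, of 7 TREM2 signalling genes 0 were past 2-fold, of 8 cytokine genes 1 was higher and 1 lower, and of 5 lipid genes 1, Npc2, was higher. Over all genes 7.79% were past 2-fold higher and 10.3% lower.

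The 10 genes of highest ratio against 0 were Csnk1g3, Ptgs2, Acadl, Fabp5, Gnptab, Vim, Psma1, Rsl1d1, Matr3 and Ms4a7. Csnk1g3, Ptgs2 and Acadl had 66, 60 and 58 UMIs with at least 4 genes and 0 UMIs with none, so they were at least 3.14-, 2.86- and 2.76-fold higher with 0 set to 3 counts over the group. Apart from Fabp5, the other 6 rested on 1 UMI each in the 44 barcodes. Ms4a7 had 52 UMIs against 1, a ratio of 7.43 (1.28 to 299).

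The 10 of lowest ratio were Hspa1a, Csmd3, Hspa1b, Tcf7l2, Agmo, Numb, Jun, Slc37a2, Tet3 and Ulk2. They ran between 0.115-fold for Hspa1a and 0.234-fold for Ulk2. Hspa1a and Hspa1b are near-identical copies of a heat-shock gene and may share reads.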

How the data were processed

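The deposited values are whole-number UMI counts. The submitters' processing notes name Cell Ranger 8.0.1 and the build GRCm39, with no annotation release. Of 1 library, 187 of 6672 barcodes were removed by the filter. The 10 genes and the gene lists were chosen with earlier results of these data known. Of 120 markers 119 were matched, and of 118 list genes 117; Tyrobp is in both the TREM2 and the damage-associated list.

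UMIs were summed per type and divided by the type's total. Shares, co-detection and splits used barcodes thinned without replacement to 2000 UMIs (seed 0), shallower ones left out. Intervals are exact Poisson for levels, Clopper-Pearson for shares and conditional binomial for ratios. Doublets were left in; Scrublet in scanpy 1.11.5 called 261 barcodes (4.02%), 225 of them ungated and 4 microglia, and leaving them out was an alternative. Python 3.11.15, numpy 2.4.6, scipy 1.17.1, pandas 2.3.3 and matplotlib 3.10.9 were used, and the measures were tested on simulated data.

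Named genes are the 10, the 3 closest to each by phi among genes outside the 10 seen in at least 50 thinned microglia, the 10 of largest ratio in each direction between barcodes with at least 4 and with none of the genes, and list genes past 2-fold with up to 4 others per list. List genes of the single-gene splits, Ms4a7 and the other marker values beside a result were chosen after their values were seen. Alternatives varied the cell filter, doublets, gate, weighing of cells, depth and seed of thinning, thresholds and low-count filters. Some genes of the lists and marker sets are not reported here by name.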

Additional observations from a re-analysis of the deposited data

How the results depend on the processing

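No paired analysis was possible because the library stands alone in its group. Of the pairs at 1.5 or more, 4 passed below 1 under some alternative: Lpl and Igf1 (6.29) at 0 with 5 of 8 markers and at 0 at 1000 UMIs, Lpl and Gpnmb (2.87) at 0 within 5000 to 8000 UMIs, Lpl and Itgax (2.26) at 0.777 there, and Itgax and Lgals3 (1.75) at 0.902 with 5 of 8 markers. The count of pairs at 1.5 in microglia, 23, ran from 20 to 29, with 16 to 23 of the same pairs, and 16 pairs reached 2. In border macrophages the count of 14 was 9 with at least 1000 genes and at most 5% mitochondrial UMIs, 9 without Scrublet calls, 8 with 5 of 8 markers required, 6 at 1000 UMIs, 8 at 4000 UMIs and 8 at a ratio of 2. The share of microglia with at least 4 genes, 13.5%, was 8.43% with 5 of 8 markers (4.403% from the product), 5.23% at 1000 UMIs (1.83%), 29.0% at 4000 UMIs (27.2%), 9.83% without barcodes with another macrophage marker (5.61%) and 9.58% within 5000 to 8000 UMIs (5.71%). The last 2 alternatives, the gate without a limit on a second type and the group of 0 or 1 gene were chosen after seeing the data. Genes past 2-fold between barcodes with at least 4 genes and with none, 450 in all, numbered 67 where the groups had to sum to 200 UMIs or more. At other depths the rule for the groups also moved their limits: the count was 163 at 1000 UMIs (at least 3 genes against 0) and 691 at 4000 UMIs (at least 5 against 0 or 1). Genes highest in microglia, 8, numbered 2 without the limit on a second type, 6 within 5000 to 8000 UMIs, 7 with 5 of 8 markers, 7 without barcodes with another macrophage marker and 9 with the general myeloid gate. The log2 ratio of Lgals3 over border macrophages, 0.73, was -0.10 without the limit. The Spp1 level was 92.3 CPM with 5 of 8 markers and 284 CPM with a gate on general myeloid markers, against 228 CPM. The cause of these moves was not tested. Of the other values, 483 kept their size within counting error, 111 moved and 5 passed below 1. With 44 barcodes lacking all 10 genes and 34 thinned barcodes with Igf1, depth limits both readings.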
